A study of Homo sapiens with 6 samples.

Results

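Nuclear pore and nuclear transport genes were taken as all protein-coding genes whose symbols are NUP, KPNA, KPNB, IPO, XPO or TNPO followed by a number, with SEH1L, SEC13, RAE1, TPR, AAAS, POM121, NDC1, RAN, RANBP2 and CSE1L. The rule found 54 genes among 60651 gene rows, and 52 of them passed the filter on low counts. They comprise 29 nucleoporin genes, 24 genes of transport receptors and the gene of the GTPase Ran. RNA was sequenced from MDA-MB-231, an established human triple-negative breast cancer line, after 24 h with 150 µg/ml AF-EAE, with 75 µg/ml AF-EAE or with the solvent DMSO, in 2 libraries per group. AF-EAE was extracted with ethyl acetate from the plant Antenoron filiforme. The cells were labelled as wild type in every group. A cell line in culture holds no other cells of a tumour, and the labels name no batches.

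Nuclear pores are the channels through the nuclear envelope. An outer and an inner ring of scaffold nucleoporins are held in the membrane by a few membrane proteins, and nucleoporins rich in phenylalanine-glycine repeats fill the central channel and keep larger molecules out. Importins and exportins carry cargo through this barrier. Ran bound to GTP in the nucleus releases import cargo and loads export cargo, and GTP hydrolysis in the cytoplasm reverses both steps. Dividing cells build new pores in interphase and rebuild them after mitosis, when Ran and importins also guide the spindle.

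Most of these transcripts were lower after AF-EAE, by modest amounts. At 75 µg/ml against DMSO, 38 of the 52 tested genes fell, 1 rose and 13 did not pass the test (adjusted p under 0.05), while 19.4% of the 15589 tested genes fell and 19.2% rose. The median log2 fold change of the 52 was -0.27, against 0.01 over all tested genes. At 150 µg/ml against DMSO, 39 fell, 2 rose and 11 did not pass, against a background of 25.7% falling and 25.8% rising, and the medians were -0.36 and 0.03. Both libraries lay below both DMSO libraries for 42 of the 52 genes at 75 µg/ml and for 45 at 150 µg/ml, beside 33.3% and 35.6% of all tested genes, and above them for 3 at each dose, beside 35.2% and 39.2%. Both comparisons use the same DMSO libraries and are not independent of each other. Called falls ran from -0.61 to -0.18 on the log2 scale at 75 µg/ml and from -1.33 to -0.15 at 150 µg/ml, so that NUP210 alone fell by more than 1 at the higher dose. P-values are Benjamini-Hochberg adjusted over all tested genes, from edgeR's quasi-likelihood F-test on 6 libraries.

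Summed over all 54 genes, the level was 12381 and 12332 CPM with DMSO, then 9854 and 10030 CPM at 75 µg/ml and 9274 and 9282 CPM at 150 µg/ml, where CPM is the usual depth-scaled count, here with TMM-adjusted library sizes. The 3 groups did not overlap in this sum. Sums of the nucleoporins were at 0.829 of DMSO at 75 µg/ml and 0.780 at 150 µg/ml, and those of the transport receptors at 0.797 and 0.747. The sum over all tested genes was at 0.916 of DMSO with the lower dose and 0.878 with the higher. This sum is set by the TMM factors, 0.928 and 0.932 with DMSO, 1.01 and 1.02 at 75 µg/ml and 1.06 in each 150 µg/ml library. It therefore does not measure a fall of the tested genes as a whole, and the sums of the 54 genes depend on the same factors. As a share of unscaled gene counts, the 54 genes made up 1.15% of each DMSO library. Their share was 0.998% and 1.02% with the lower dose, then 0.982% and 0.98% with the higher. The scaling matters for shifts as small as those of these genes. With total counts in place of TMM, the median of all tested genes moved to 0.14 at 75 µg/ml and 0.22 at 150 µg/ml, and the medians of the 52 genes to -0.15 and -0.17. The distance between the 2 medians was -0.29 at 75 µg/ml and -0.39 at 150 µg/ml under both scalings. A change of scaling shifts all genes by nearly the same amount, so this distance could not test the scaling. Calls under total counts were 27 lower and 4 higher at 75 µg/ml, and 30 lower and 5 higher at 150 µg/ml, beside 11.6% lower and 28.9% higher of all tested genes at 75 µg/ml, with 16.3% of them lower and 38.7% higher at 150 µg/ml. The directions below are therefore relative to TMM scaling.

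**Figure D1:**
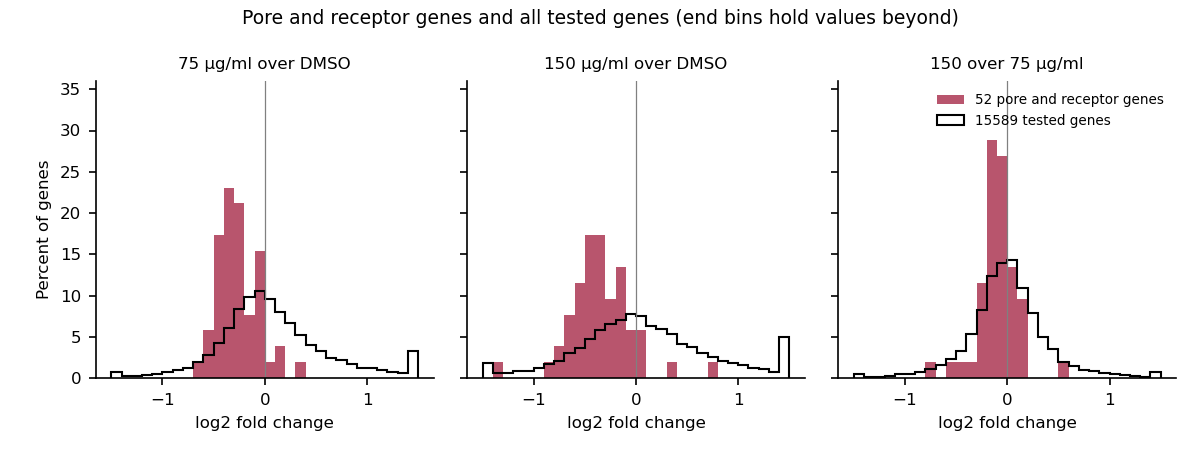
Histograms of log2 fold changes (x axis) as the percent of genes in each bin (y axis) for the 52 tested pore and receptor genes (filled) and all 15589 tested genes (outline), for 75 µg/ml over DMSO, 150 µg/ml over DMSO and 150 over 75 µg/ml, with values beyond the axis in the end bins. The filled distributions lie mostly below 0 in the panels against DMSO, with medians of -0.27 and -0.36, and near 0 between the doses, with a median of -0.08.

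Library depth ran from 15621103 to 17113722 counts in genes, and the 52 tested genes had between 148 (KPNA5) and 16875 (KPNB1) counts in a library. Both libraries of a group correlated at 0.994 across genes on the log2 scale, and the chi-square of their counts was 2.79 to 3.54 per degree of freedom, above sampling noise. Of the markers of the line, VIM averaged 836 CPM with DMSO, 662 at 75 µg/ml and 555 at 150 µg/ml, and CD44, AXL, EGFR, KRT8, KRT18 and ZEB1 were also present. Of the genes of the receptors that define the triple-negative type, PGR was at or below 0.0580 CPM. ESR1 averaged 0.129 CPM with DMSO, 0.849 at 75 µg/ml and 0.654 at 150 µg/ml, and edgeR called it higher at each dose (adjusted p = 0.00563 and 0.0136). Its DMSO libraries, at 0.126 and 0.131 CPM, lay below the level of 3 counts (0.175 and 0.183 CPM before TMM scaling). These calls therefore rest on very low counts. ERBB2, the third, was present at 85.2, 98.1 and 84.3 CPM. EPCAM (4.36, 5.27 and 3.88 CPM) and GATA3 (13.9, 11.3 and 7.46 CPM) were low, and CDH1 was at or below 0.121 CPM. Of the markers of other cell types, PTPRC and DCN were at 0 in all libraries, LUM was at or below 0.0604 CPM, and PECAM1 averaged 0.550, 0.819 and 1.10 CPM. The labels call the libraries of a group biological replicates without naming separate cultures, and the p-values measure only the spread among these libraries. Other genes overlap 22.6% of the exonic length of IPO11, 21.1% of NUP62, 18.9% of POM121, 18.7% of NUP88, 16.3% of KPNA1 and 13% of NUP42, and reads in such stretches may be missing from their counts. In bulk RNA, fewer cells that hold a transcript and less of it per cell cannot be told apart.

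The membrane anchors of the pore held the largest fall. NUP210 encodes a transmembrane glycoprotein that forms a ring in the lumen of the nuclear envelope. Its transcript (ENSG00000132182.12, minus strand of chromosome 3, from 13316235 to 13420309 on GRCh38) stood at 120 and 123 CPM with DMSO, then 74.7 and 84.1 CPM at 75 µg/ml and 43.8 and 52.6 CPM at 150 µg/ml. Each dose lay below the one before it with no overlap of libraries. The log2 fold changes were -0.61 at 75 µg/ml (SE 0.0773, adjusted p = 7.1e-06) and -1.33 at 150 µg/ml (SE 0.0808, adjusted p = 3.5e-10). NDC1, a transmembrane nucleoporin needed for pore assembly, was measured at 184 and 188 CPM with DMSO, then 137 and 133 CPM at 75 µg/ml and 105 and 114 CPM at 150 µg/ml. Its 3 groups were also apart, with log2 fold changes of -0.46 (SE 0.0551, adjusted p = 4.3e-06) and -0.76 (SE 0.0558, adjusted p = 4.0e-09). POM121, another membrane nucleoporin, fell by 0.31 on the log2 scale at either dose (adjusted p = 9.0e-04 at 75 µg/ml and 6.0e-04 at 150 µg/ml), and its call at 150 µg/ml was lost under total counts. POM121 has a near-identical copy, POM121C, whose row held 112% as many counts, so reads may be split between them. AAAS encodes ALADIN, which NDC1 tethers to the pore, and did not pass at either dose (0.14, interval -0.03 to 0.31, and 0.06, interval -0.11 to 0.22, both at 95%). It was called higher at both doses under total counts.

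The promoters of NUP210 and NDC1 are printed because both encode membrane nucleoporins whose transcripts fell at each dose with no overlap between groups. They are RefSeq windows on GRCh38.p14, from 250 bases before to 50 after the start, on the strand of the gene, which is minus for both: chr3:13420273-13420572 and chr1:53838247-53838546. Capitals mark matches to the motifs described with the other promoters, and NUP210 has none.
NUP210: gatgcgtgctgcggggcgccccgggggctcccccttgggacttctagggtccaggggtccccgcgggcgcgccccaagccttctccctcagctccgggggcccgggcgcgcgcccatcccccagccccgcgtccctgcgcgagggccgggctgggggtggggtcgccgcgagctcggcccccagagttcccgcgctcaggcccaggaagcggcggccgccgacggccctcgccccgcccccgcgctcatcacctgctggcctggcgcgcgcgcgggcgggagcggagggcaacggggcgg
NDC1: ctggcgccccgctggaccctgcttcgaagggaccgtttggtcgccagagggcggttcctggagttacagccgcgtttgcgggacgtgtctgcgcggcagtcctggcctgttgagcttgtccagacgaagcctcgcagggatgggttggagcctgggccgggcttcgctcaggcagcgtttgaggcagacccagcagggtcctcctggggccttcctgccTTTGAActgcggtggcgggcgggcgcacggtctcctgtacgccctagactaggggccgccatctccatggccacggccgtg

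The inner ring fell throughout. All 5 of its genes fell at each dose, with medians of -0.27 and -0.48, while 19.4% and 25.7% of all tested genes fell. NUP35, the smallest of these scaffold proteins and a membrane-binding one, was measured at 35.2 and 38.7 CPM with DMSO, then 27.9 and 29.9 CPM at 75 µg/ml and 20.6 and 21.2 CPM at 150 µg/ml. The groups did not overlap, and the log2 fold changes were -0.35 (SE 0.0933, adjusted p = 0.00606) and -0.82 (SE 0.0962, adjusted p = 1.5e-06). NUP205, a large scaffold protein, had 437 and 460 CPM with DMSO, then 364 and 379 CPM at 75 µg/ml and 328 and 316 CPM at 150 µg/ml. Again no groups overlapped (log2 fold changes -0.27 and -0.48). Its paralogue NUP188 was at -0.23 and -0.33, NUP93, which links these large proteins to the channel, at -0.27 and -0.41, and NUP155, another membrane-binding scaffold protein, at -0.40 and -0.51. Under total counts the calls of NUP35 and NUP188 at 75 µg/ml were lost, and all 5 still fell at 150 µg/ml. The call of NUP35 at 75 µg/ml was also lost without DMSO replicate 2 (adjusted p = 0.0626) and without AF-EAE 75 µg/ml replicate 1 (adjusted p = 0.0583).

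The outer ring, or Y complex, is the coat-like scaffold on both faces of the pore. Of its 8 genes, 4 fell at 75 µg/ml and 7 at 150 µg/ml, beside 19.4% and 25.7% of all tested genes. Under total counts 2 fell at 75 µg/ml, while 4 fell and NUP43 rose at 150 µg/ml. Of all tested genes, 11.6% and 16.3% were lower under that scaling, and 28.9% and 38.7% higher. SEH1L, a beta-propeller subunit shared with the GATOR2 complex of nutrient sensing, had 160 and 161 CPM with DMSO, then 112 and 115 CPM at 75 µg/ml and 103 and 102 CPM at 150 µg/ml. Its libraries were separate in all groups, and the log2 fold changes were -0.50 (SE 0.0522, adjusted p = 8.8e-07) and -0.64 (SE 0.0525, adjusted p = 1.7e-08). NUP85, the subunit that binds SEH1L, was found at 122 and 118 CPM with DMSO, then 87.6 and 94.9 CPM at 75 µg/ml and 73.9 and 78.9 CPM at 150 µg/ml. No NUP85 libraries overlapped between groups (-0.40, SE 0.0619, and -0.65, SE 0.0627). NUP107, in the stem of the Y, and NUP160, in one of its arms, also fell at each dose (-0.20 and -0.36, and -0.21 and -0.27). NUP133 (-0.15 and -0.35), NUP37 (-0.01 and -0.27) and SEC13 (-0.08 and -0.15) passed at 150 µg/ml and not at 75 µg/ml, while the difference between doses passed for NUP133 (adjusted p = 0.0264) and not for NUP37 (0.0626) or SEC13 (0.412). At 150 µg/ml the call of NUP37 was lost when each of the 4 libraries compared was left out in turn, with adjusted p from 0.0563 to 0.109, and that of SEC13 without DMSO replicate 2 or either AF-EAE library (0.0697 to 0.0962). At 75 µg/ml NUP107 was lost without DMSO replicate 2 or either AF-EAE library (0.0722 to 0.128), and NUP133 passed without DMSO replicate 2 (0.0316). NUP43 passed at neither dose (-0.06 and 0.05). SEC13 is also a coat protein of vesicles that leave the endoplasmic reticulum.

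In the central channel, NUP62, NUP54 and NUP58 form a trimer of repeat-rich proteins, and NUP98 adds the most cohesive repeats. NUP62 had 114 and 108 CPM with DMSO, then 90.0 and 89.3 CPM at 75 µg/ml and 82.1 and 82.1 CPM at 150 µg/ml. The groups were apart (log2 fold change -0.31, SE 0.058, adjusted p = 3.7e-04, and -0.44, SE 0.0583, adjusted p = 6.3e-06). NUP98 was at 275 and 298 CPM with DMSO, then 233 and 243 CPM at 75 µg/ml and 212 and 213 CPM at 150 µg/ml. Its groups did not overlap either (-0.27, adjusted p = 4.8e-04, and -0.43, adjusted p = 1.9e-06). The same gene also encodes the outer ring protein NUP96, which is cut from a joint precursor, and gene counts do not separate the products. NUP54 fell at both doses (-0.25 and -0.37). NUP58 had 166 and 171 CPM with DMSO, then 143 and 145 CPM at 75 µg/ml and 167 and 155 CPM at 150 µg/ml. The 75 µg/ml libraries were the low ones (-0.23, SE 0.0539, adjusted p = 0.00227), and the 150 µg/ml libraries overlapped those of DMSO (-0.07, interval -0.18 to 0.04 at 95%, adjusted p = 0.305). Under total counts the falls of NUP54 and NUP58 at 75 µg/ml were lost.

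Of the 5 genes of the cytoplasmic face, 3 fell at 75 µg/ml and 1 at 150 µg/ml, where 19.4% and 25.7% of all tested genes fell. Under total counts 1 fell and 1 rose at each dose. Of all tested genes, 11.6% then fell and 28.9% rose at 75 µg/ml, and 16.3% fell and 38.7% rose at 150 µg/ml. The median at 150 µg/ml of -0.12 turned to 0.07, below the 0.22 of all tested genes. NUP88, which anchors the export platform on the cytoplasmic side, was the gene that fell at both doses (-0.33, SE 0.0556, and -0.46, SE 0.0559). RANBP2, the giant filament protein that binds Ran and acts in SUMO modification, had 208 and 204 CPM with DMSO, then 174 and 183 CPM at 75 µg/ml and 198 and 192 CPM at 150 µg/ml. The 75 µg/ml libraries were lowest and the 150 µg/ml libraries lay just under DMSO (-0.21, SE 0.0504, adjusted p = 0.00334, lost under total counts, and -0.08, SE 0.0501, adjusted p = 0.197). RGPD genes, which are copies of RANBP2, held 4.82% as many counts as RANBP2. RAE1, an mRNA export factor that binds NUP98, was at -0.27 (adjusted p = 0.00501, lost under total counts) and -0.12 (adjusted p = 0.177, and 0.00837 without AF-EAE 150 µg/ml replicate 1). NUP214 (0.03 and 0.08) and NUP42 (-0.12 and -0.18) did not pass. NUP214 was called higher at both doses under total counts.

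The nuclear basket reaches into the nucleus. NUP153, the basket protein that recruits TPR, had 298 and 295 CPM with DMSO, then 214 and 225 CPM at 75 µg/ml and 206 and 214 CPM at 150 µg/ml. DMSO stood apart, and the 2 doses met at 214 CPM. The log2 fold changes were -0.43 (SE 0.0486, adjusted p = 2.1e-06) and -0.50 (SE 0.0487, adjusted p = 1.6e-07). NUP50, a mobile cofactor of importins, was at -0.43 and -0.40. TPR, the coiled-coil filament of the basket, was measured at 296 and 323 CPM with DMSO, then 282 and 304 CPM at 75 µg/ml and 281 and 292 CPM at 150 µg/ml. TPR libraries at 75 µg/ml overlapped those of DMSO and those at 150 µg/ml lay just below them (-0.08, interval -0.19 to 0.03, adjusted p = 0.265, and -0.11, interval -0.23 to 0.00, adjusted p = 0.0956). Without DMSO replicate 1, TPR fell at 150 µg/ml (-0.18, adjusted p = 0.0193).

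**Figure D2:**
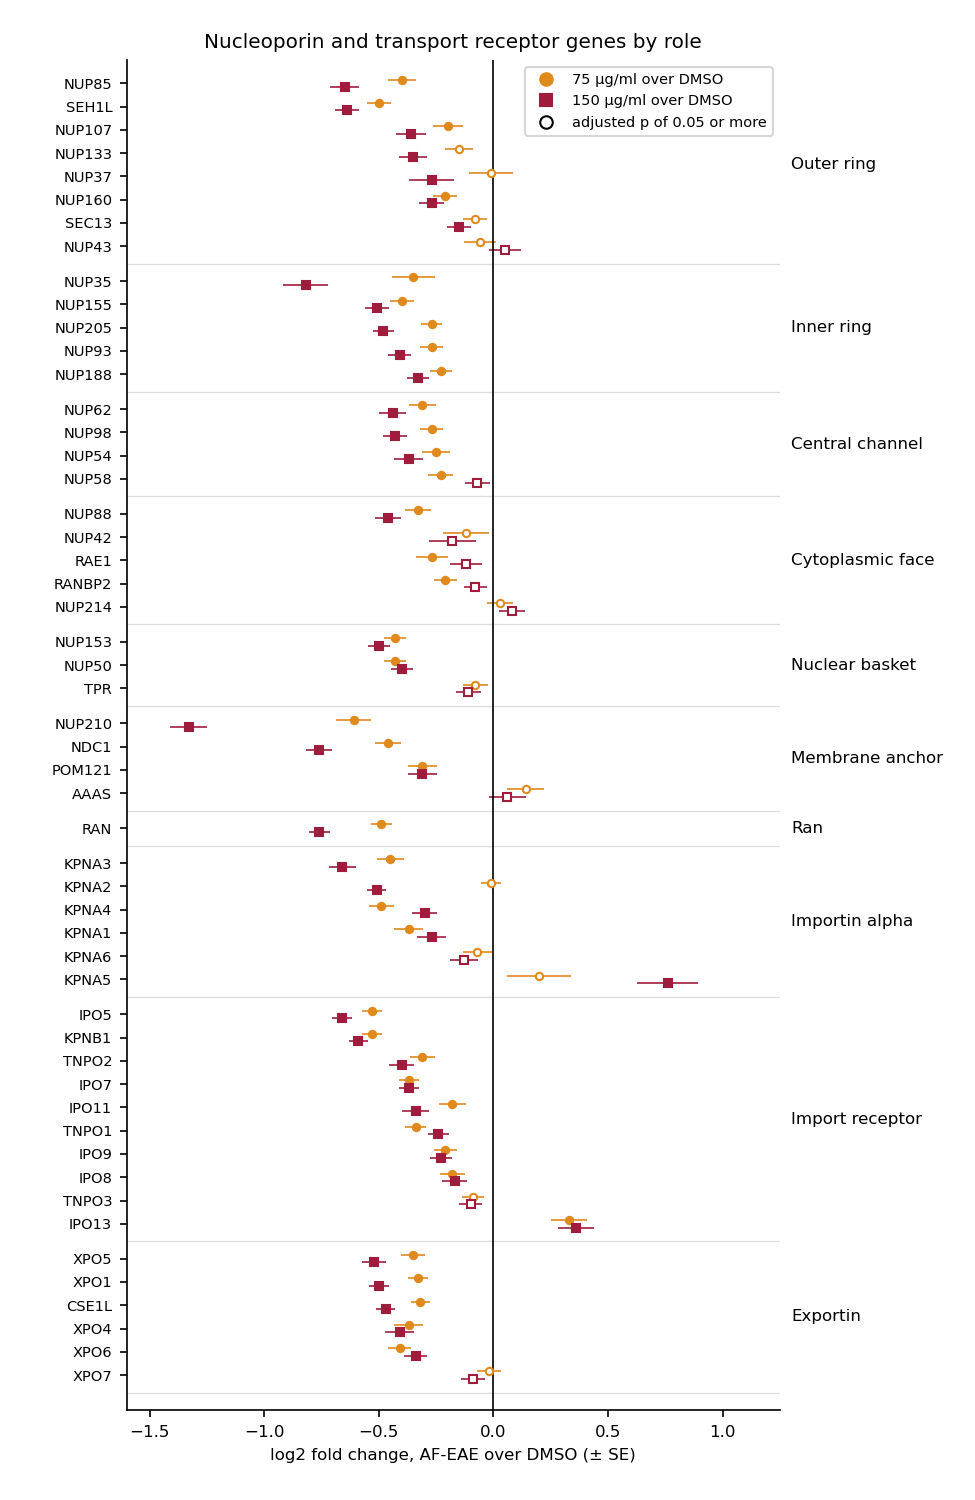
Log2 fold changes over DMSO with SE (x axis) for each of the 52 tested genes (rows, grouped by role), at 75 µg/ml (circles) and 150 µg/ml (squares). Open symbols did not pass an adjusted p of 0.05. Most symbols lie left of 0, NUP210 at 150 µg/ml lies farthest left at -1.33, and the filled symbols right of 0 are those of IPO13 and KPNA5.

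RAN encodes the GTPase that gives transport its direction, and its transcript fell at each dose. RAN (ENSG00000132341.12, plus strand of chromosome 12, from 130871879 to 130877678 on GRCh38) had 725 and 685 CPM with DMSO, then 510 and 497 CPM at 75 µg/ml and 423 and 412 CPM at 150 µg/ml. The groups were fully separate and followed the dose. The log2 fold changes were -0.49 (SE 0.0453, adjusted p = 2.3e-07) and -0.76 (SE 0.0456, adjusted p = 3.3e-10), and 150 µg/ml was below 75 µg/ml by -0.27 (SE 0.0457, adjusted p = 4.1e-04). Rows named as RAN copies held 0.0285% as many counts as RAN. The promoter window of RAN (chr12:130871816-130872115, plus strand) is shown because Ran drives both directions of transport. It holds an E-box from base -102 and a TTTGAA element from base -3.
RAN: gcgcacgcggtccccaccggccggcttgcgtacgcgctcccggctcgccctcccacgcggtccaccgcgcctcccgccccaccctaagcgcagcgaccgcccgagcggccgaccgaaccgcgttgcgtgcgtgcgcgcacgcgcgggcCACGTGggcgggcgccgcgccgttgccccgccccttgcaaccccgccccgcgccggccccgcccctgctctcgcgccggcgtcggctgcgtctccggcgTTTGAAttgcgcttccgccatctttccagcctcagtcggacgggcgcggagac

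Importin alpha proteins are adaptors that read the classical nuclear localization signal and hand cargo to importin beta. Their transcripts did not move alike. KPNA2, the highest of them per kilobase, had 538 and 531 CPM with DMSO, then 532 and 528 CPM at 75 µg/ml and 370 and 379 CPM at 150 µg/ml. The 150 µg/ml libraries were the low ones, and those of the other groups overlapped. At 75 µg/ml the log2 fold change was -0.01 (interval -0.10 to 0.08 at 95%, adjusted p = 0.837; 0.11 with adjusted p = 0.0413 under total counts), and at 150 µg/ml it was -0.51 (SE 0.0432, adjusted p = 2.3e-08). The step between the doses was itself past the test (-0.50, SE 0.0431, adjusted p = 4.3e-07).

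KPNA3 and KPNA4 are close paralogues. KPNA3 had 145 and 141 CPM with DMSO, then 99.7 and 110 CPM at 75 µg/ml and 91.6 and 90.2 CPM at 150 µg/ml, with all groups apart (-0.45, SE 0.0586, and -0.66, SE 0.0591). KPNA4 had 174 and 171 CPM with DMSO, then 126 and 120 CPM at 75 µg/ml and 145 and 135 CPM at 150 µg/ml. Here the 75 µg/ml libraries were lowest, those at 150 µg/ml came between, and no groups overlapped (-0.49, SE 0.0545, and -0.30, SE 0.0539). Its fall at 150 µg/ml was lost under total counts. The difference between the doses was 0.19 for KPNA4 (adjusted p = 0.0213) and -0.20 for KPNA3 (adjusted p = 0.0219), and the difference of KPNA3 did not pass under total counts (adjusted p = 0.103).

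KPNA1, KPNA5 and KPNA6 form another subfamily. KPNA1 fell (-0.37 and -0.27, its call at 150 µg/ml lost under total counts), and KPNA6 did not pass at either dose (-0.07 and -0.13). KPNA5, the lowest of the tested genes per kilobase, had 9.83 and 9.69 CPM with DMSO, then 11.5 and 11.0 CPM at 75 µg/ml and 17.8 and 15.3 CPM at 150 µg/ml. It was highest at 150 µg/ml, with no overlap between any groups (0.20, SE 0.139, adjusted p = 0.27, and 0.76, SE 0.134, adjusted p = 1.3e-04). KPNA7, an oocyte and embryo form, had counts of 0 and 0 with DMSO, of 1 and 0 at 75 µg/ml and of 3 and 1 at 150 µg/ml and was not tested. It was at or below 3 counts in each library, which correspond to 0.175 to 0.192 CPM before TMM scaling and cover counting error only. The KPNA2 promoter window (chr17:68035485-68035784, plus strand) is shown for its course over the doses. It has CCAAT boxes from bases -89 and -58 and TTTGAA elements, read on either strand, from bases -99 and 33.
KPNA2: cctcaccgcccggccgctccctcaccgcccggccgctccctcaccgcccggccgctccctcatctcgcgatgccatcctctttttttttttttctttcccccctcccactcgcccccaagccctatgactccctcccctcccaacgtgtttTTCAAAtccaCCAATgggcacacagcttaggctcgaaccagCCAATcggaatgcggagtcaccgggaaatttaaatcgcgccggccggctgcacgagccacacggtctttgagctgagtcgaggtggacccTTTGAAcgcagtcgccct

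**Figure D3:**
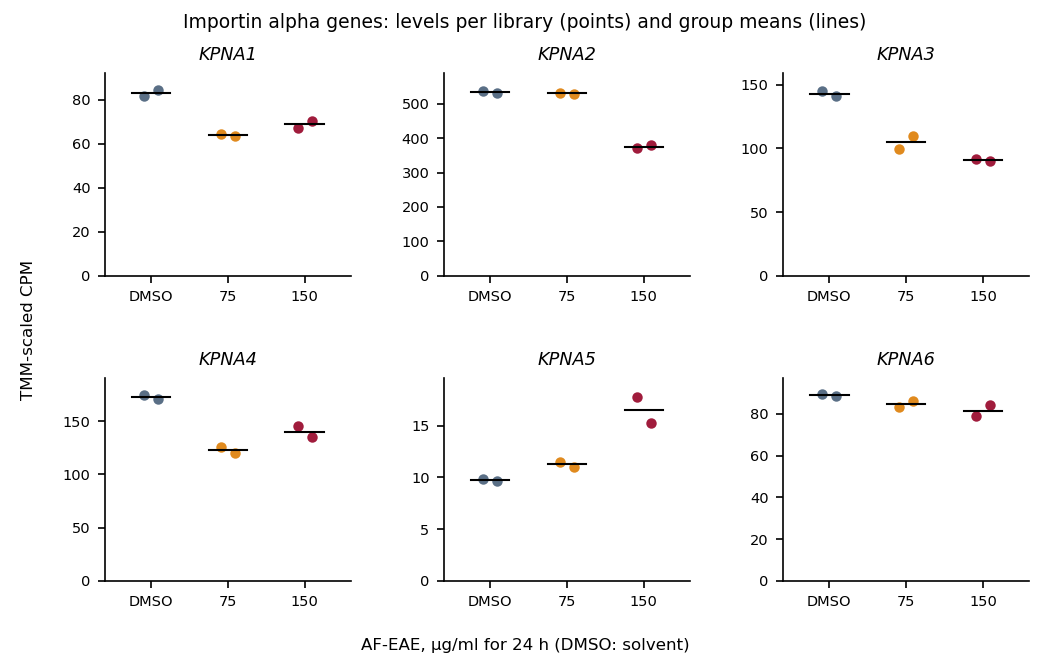
TMM-scaled CPM (y axes, from 0) of the 6 tested importin alpha genes in each library (points) and as group means (lines), for DMSO, 75 and 150 µg/ml AF-EAE (x axes). KPNA2 is level between DMSO and 75 µg/ml and lower at 150 µg/ml, KPNA4 is lowest at 75 µg/ml, and KPNA5 is highest at 150 µg/ml.

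Import receptors of the importin beta family bind Ran and cargo. Of the 10 tested, 8 fell and IPO13 rose at each dose, while 19.4% and 25.7% of all tested genes fell. Under total counts 5 fell and IPO13 rose at each dose, while 11.6% and 16.3% of all tested genes fell. KPNB1, importin beta itself, had 1064 and 1041 CPM with DMSO, then 729 and 729 CPM at 75 µg/ml and 693 and 706 CPM at 150 µg/ml. DMSO stood far above both doses, which lay close together without overlap (-0.53, SE 0.0415, adjusted p = 2.9e-08, and -0.59, SE 0.0415, adjusted p = 2.4e-09). IPO5, a receptor for ribosomal proteins and histones, had 656 and 661 CPM with DMSO, then 449 and 464 CPM at 75 µg/ml and 407 and 427 CPM at 150 µg/ml. Groups were separate (-0.53, SE 0.0447, adjusted p = 7.5e-08, and -0.66, SE 0.0448, adjusted p = 1.5e-09). IPO7, another receptor for ribosomal proteins and histone H1, was at -0.37 and -0.37, TNPO1, which carries RNA-binding proteins such as HNRNPA1, at -0.34 and -0.24, and TNPO2, its paralogue, at -0.31 and -0.40. Smaller falls were those of IPO8, a paralogue of IPO7 (-0.18 and -0.17), IPO9, a carrier of core histones (-0.21 and -0.23), and IPO11, a carrier of ubiquitin-conjugating enzymes (-0.18 and -0.34). Calls lost under total counts were those of IPO8 and IPO9 at both doses, IPO11 at 75 µg/ml and TNPO1 at 150 µg/ml. IPO8 was also lost without DMSO replicate 2 at both doses (adjusted p = 0.106 and 0.0958), without AF-EAE 75 µg/ml replicate 1 (0.118) and without AF-EAE 150 µg/ml replicate 1 (0.0680). IPO11 at 75 µg/ml was lost without DMSO replicate 1 or either AF-EAE library (0.0684 to 0.112). TNPO3, the carrier of serine-arginine splicing factors, did not pass (-0.09, interval -0.19 to 0.02, and -0.10, interval -0.21 to 0.00).

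IPO13 rose at each dose. Its protein works in both directions, importing the exon junction proteins MAGOH and RBM8A and exporting the initiation factor EIF1A. It had 34.5 and 36.5 CPM with DMSO, then 45.5 and 43.7 CPM at 75 µg/ml and 44.8 and 46.0 CPM at 150 µg/ml. Both doses lay above DMSO and overlapped each other (0.33, SE 0.0799, adjusted p = 0.00339, and 0.36, SE 0.0796, adjusted p = 0.00116). IPO4 was listed with counts of 1 and 0 with DMSO, of 0 and 0 at 75 µg/ml and of 1 and 1 at 150 µg/ml and was not tested. Of its exonic length, 70.1% overlaps other genes, and the part of this overlap in the low count was not tested. The IPO13 window (chr1:43946700-43946999, plus strand) is shown as that of the import receptor that rose, and has no match to the motifs searched.
IPO13: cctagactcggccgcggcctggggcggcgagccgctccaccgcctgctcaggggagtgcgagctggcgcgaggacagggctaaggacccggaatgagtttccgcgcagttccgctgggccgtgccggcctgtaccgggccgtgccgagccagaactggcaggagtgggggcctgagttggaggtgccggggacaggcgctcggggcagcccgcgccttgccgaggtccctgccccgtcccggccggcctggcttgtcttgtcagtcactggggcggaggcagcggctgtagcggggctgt

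Exportins bind cargo together with Ran-GTP. Of 6 genes, 5 fell at each dose, also under total counts. Of all tested genes 19.4% and 25.7% fell, and 11.6% and 16.3% under total counts. XPO7 did not pass (-0.02, interval -0.13 to 0.09, and -0.09, interval -0.20 to 0.02). CSE1L, which returns importin alpha to the cytoplasm, had 898 and 896 CPM with DMSO, then 718 and 724 CPM at 75 µg/ml and 641 and 650 CPM at 150 µg/ml. The libraries of the 3 groups were far apart relative to their spread (-0.32, SE 0.0412, adjusted p = 1.0e-05, and -0.47, SE 0.0413, adjusted p = 3.6e-08). XPO1, the exporter of proteins with leucine-rich signals, had 535 and 549 CPM with DMSO, then 423 and 439 CPM at 75 µg/ml and 380 and 387 CPM at 150 µg/ml. XPO1 followed the same order with no overlap (-0.33, SE 0.0443, adjusted p = 1.4e-05, and -0.50, SE 0.0445, adjusted p = 4.8e-08). XPO5, the exporter of microRNA precursors, was at -0.35 and -0.52, XPO6, which exports actin, at -0.41 and -0.34, and XPO4, which exports the initiation factor EIF5A, at -0.37 and -0.41.

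**Figure D4:**
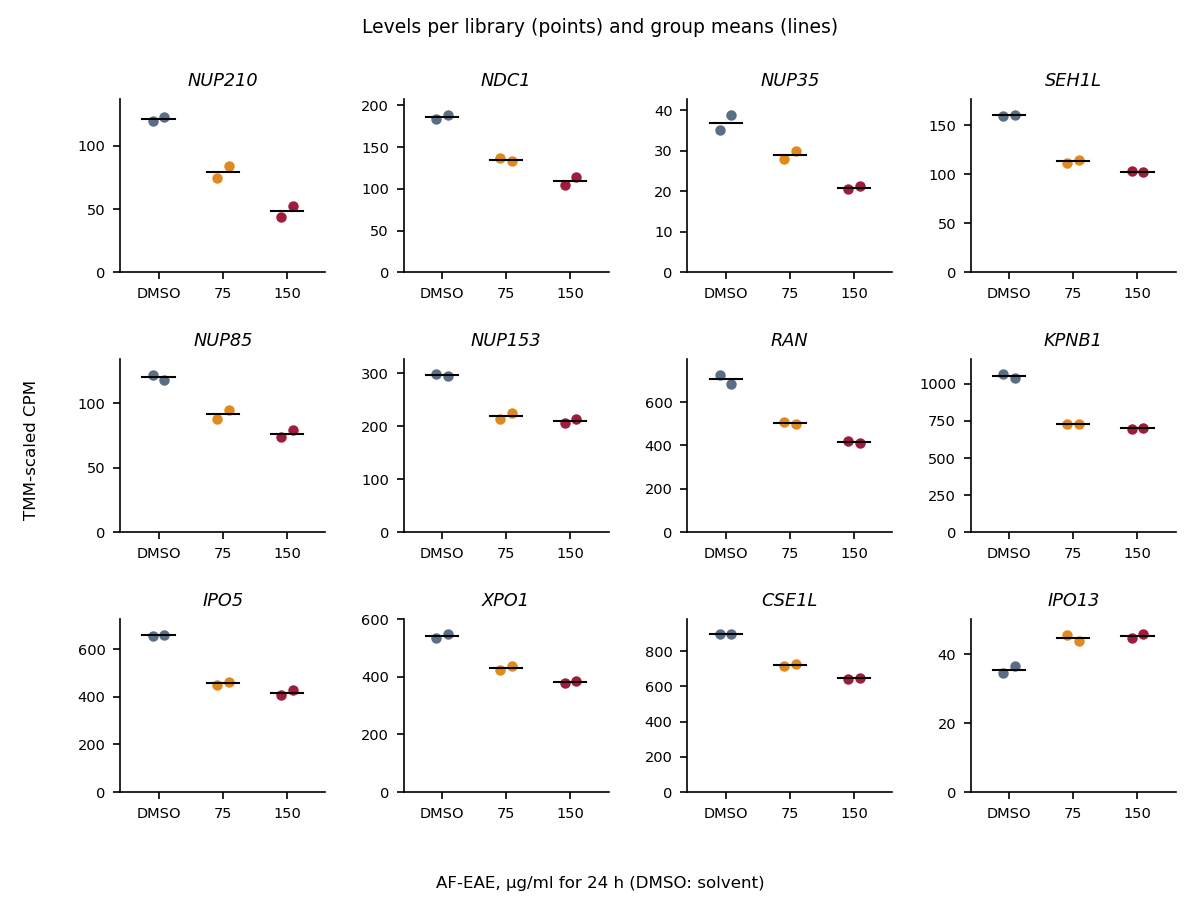
TMM-scaled CPM (y axes, from 0) of 12 genes in each library (points) and as group means (lines), for DMSO, 75 and 150 µg/ml AF-EAE (x axes). In 11 of them both doses lie below DMSO, and IPO13 lies above it.

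Between the doses the differences were smaller. At 150 against 75 µg/ml, 14 of the 52 genes fell, 3 rose and 35 did not pass, beside 12.5% and 9.51% of all tested genes, with medians of -0.08 and 0.00. Both 150 µg/ml libraries lay below both 75 µg/ml libraries for 30 genes (30.7% of all tested) and above them for 10 (29.9%). The falls were led by NUP210 (-0.72, SE 0.0825, adjusted p = 8.7e-06), KPNA2, NUP35 (-0.47, SE 0.0977, adjusted p = 0.00236), NDC1 (-0.31, SE 0.0565, adjusted p = 8.7e-04) and RAN. NUP85 (-0.26, adjusted p = 0.00805), NUP205 (-0.20, adjusted p = 0.00505) and KPNA3 followed. XPO1, CSE1L and XPO5 fell by 0.17, 0.16 and 0.17 on the log2 scale (adjusted p = 0.0108, 0.0106 and 0.0291), NUP98 by 0.16 (0.0328), IPO5 by 0.13 (0.0486) and NUP133 by 0.20. The 3 that rose were KPNA5 (0.55, SE 0.131, adjusted p = 0.00559), KPNA4 and NUP58 (0.17, SE 0.0538, adjusted p = 0.0357). KPNB1, IPO7, NUP153 and NUP50 did not pass, with intervals of -0.15 to 0.03, -0.09 to 0.09, -0.17 to 0.04 and -0.07 to 0.13. Under total counts 7 fell and 6 rose, beside 8.63% and 14.2% of all tested genes, with no exportin called by edgeR (2 lower and 1 higher at an unadjusted p under 0.05), and RANBP2, RAE1 and TNPO1 were added to the rises. The median of the 52 genes was -0.07 without AF-EAE 150 µg/ml replicate 1 or without AF-EAE 75 µg/ml replicate 2. It was -0.09 without AF-EAE 150 µg/ml replicate 2 or without AF-EAE 75 µg/ml replicate 1. Over all tested genes the median was 0.00 or 0.01 in these fits, which leave 1 library in a group. Fewer genes were then called, among the 52 and among all tested genes. The called differences of NUP210, KPNA2, NUP35, NDC1 and RAN held when each of these 4 libraries was left out in turn. Those of CSE1L, KPNA3, NUP58, KPNA4, KPNA5, XPO1, NUP85 and NUP205 were each lost without at least 1 of them, and those of IPO5, XPO5, NUP133 and NUP98 were lost without each of the 4. NUP107 and RAE1 were added without AF-EAE 150 µg/ml replicate 2 and NUP37 without AF-EAE 75 µg/ml replicate 1.

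Per kilobase of exonic length, which allows levels of different genes to be compared, CSE1L led with 236 CPM per kb in DMSO, 190 at 75 µg/ml and 170 at 150 µg/ml. KPNA2 followed with 170, 169 and 119 CPM per kb, then RAN with 146, 104 and 86.6 and KPNB1 with 137, 94.9 and 91.1. Among nucleoporins, NUP205 was at 58.9, 48.7 and 42.3 CPM per kb, NUP153 at 49.2, 36.5 and 34.8, and NUP188 at 43.1, 36.8 and 34.3. Among tested genes KPNA5 was lowest, at 0.855, 0.985 and 1.45 CPM per kb. The order of RAN and KPNB1 differed between groups: at 150 µg/ml RAN with 86.6 CPM per kb stood below KPNB1 with 91.1, and in DMSO it stood above it. Exonic length is the union of all annotated exons and can exceed that of the main transcript, which would make these levels low.

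RefSeq promoter windows were found for 48 of the 54 genes. They were searched on both strands for the E-box CACGTG, the E2F-type sequences TTTCCCGC, TTTGGCGC and TTTCGCGC, the CCAAT box, the cell cycle element TTTGAA, the NRF1 core GCGCATGC and the ATF4-type sequence TGATGNAA. TTTGAA was in 11 windows (22.9%), among them those of CSE1L, KPNA2, NDC1, NUP35, NUP98 and RAN, beside 15.4% of all 27305 promoters and 12.1% of the 15313 that matched a protein-coding gene. The E-box was in 7 (14.6%, beside 7.43% and 8.87%), with NUP188, KPNA3 and RAN among them, and CCAAT in 21 (43.8%, beside 35.7% and 36.6%). An E2F-type sequence was in 3 (6.25%, beside 2.79% and 3.8%), those of IPO11, IPO7 and NUP155. The NRF1 core was in 4 (8.33%, beside 3.27% and 4.25%) and the ATF4-type sequence in 1 (2.08%, beside 3.67% and 2.53%), that of NUP153. In NUP107, NUP50 and NUP62 the NRF1 core was read on both strands of overlapping bases. These are matches of letters in a window, with no measure of binding.

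Related genes of the same system were read from 5 lists with 65 genes, of which 60 were tested. At 75 µg/ml 28 fell and 6 rose, beside 19.4% and 19.2% of all tested genes. At 150 µg/ml 30 fell and 9 rose, beside 25.7% and 25.8%. The medians were -0.14 and -0.19, against 0.01 and 0.03 over all tested genes. Under total counts 18 fell and 11 rose at 75 µg/ml, beside 11.6% and 28.9% of all tested genes. At 150 µg/ml 22 fell and 18 rose under total counts, beside 16.3% and 38.7%. Both medians were then -0.01, below the 0.14 and 0.22 of all tested genes. Regulators of the Ran cycle fell in 5 of 6 tested cases at each dose (medians -0.38 and -0.75), while 19.4% and 25.7% of all tested genes fell. Under total counts they fell in 4 at each dose (medians -0.26 and -0.56), while 11.6% and 16.3% of all tested genes fell. RANGAP1, which triggers GTP hydrolysis by Ran, averaged 408 ± 28.5 CPM with DMSO, then 291 ± 5.67 CPM at 75 µg/ml and 216 ± 7.10 CPM at 150 µg/ml (SD over the 2 libraries of each group). RCC1, the exchange factor that loads Ran with GTP, had log2 fold changes of -0.63 and -0.95, and RANBP1, a helper of hydrolysis, -0.54 and -0.95. NUTF2, which brings Ran back into the nucleus (named after its values were seen), was at -0.28 and -0.58.

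Of 10 carriers outside the naming rule, 4 were lower and 2 higher at 75 µg/ml (40.0% and 20.0%, beside 19.4% and 19.2% of all tested genes). At 150 µg/ml 3 were lower and 3 higher (30.0% each, near the 25.7% and 25.8% of all tested genes). Under total counts 1 was lower at each dose, and 2 and 4 were higher. Of all tested genes 11.6% and 16.3% were then lower, and 28.9% and 38.7% higher. The carrier medians of -0.08 and -0.10 became 0.04 and 0.08, below the 0.14 and 0.22 of all tested genes. XPOT, the exportin of transfer RNA, rose, with 337 ± 5.69 CPM with DMSO, then 409 ± 12.3 CPM at 75 µg/ml and 498 ± 7.72 CPM at 150 µg/ml (SD over the 2 libraries of each group). Its log2 fold changes of 0.28 (adjusted p = 9.7e-05) and 0.56 (adjusted p = 1.3e-08) were opposite in sign to those of the 5 exportins that fell. Of the subunits of the cap-binding complex, NCBP1 fell (-0.35 and -0.39) and NCBP2 was at 0.00 and 0.28 (adjusted p = 0.991 and 3.5e-04). Factors of mRNA export fell in 9 and 10 of 19 cases (47.4% and 52.6%, beside 19.4% and 25.7% of all tested genes). Higher were 0 and 1 (0 at 75 µg/ml also by DESeq2 and at an unadjusted p under 0.05 by edgeR). Under total counts they fell in 6 and 9 cases, with 3 and 5 higher. Of all tested genes 11.6% and 16.3% then fell, and 28.9% and 38.7% rose. ALYREF, which joins export factors to mRNA, was at -0.67 and -0.98, the helicase DDX39A at -0.40 and -0.62 and THOC2 of the THO complex at -0.24 and -0.46.

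Genes of pore assembly and envelope sealing, with pore relatives, were lower in 3 and 2 of 13 cases (23.1% and 15.4%, beside 19.4% and 25.7% of all tested genes) and higher in 3 and 4 (23.1% and 30.8%, beside 19.2% and 25.8%), shares near those of all tested genes. Under total counts they were lower in 0 by edgeR (1 at 75 µg/ml and 0 at 150 µg/ml at an unadjusted p under 0.05) and higher in 4 and 7. Of all tested genes 11.6% and 16.3% were then lower, and 28.9% and 38.7% higher. The medians of -0.02 and 0.04 became 0.10 and 0.23, near the 0.14 and 0.22 of all tested genes. AHCTF1, which seeds pores on chromatin, fell (-0.29 and -0.31) except under total counts, and the membrane-sealing gene CHMP4B (0.25 and 0.28) and the ATPase gene TOR1A (0.30 and 0.34) rose. Lamina and inner membrane genes held the largest changes of these lists. Of 12, 7 fell at 75 µg/ml and 10 at 150 µg/ml (58.3% and 83.3%, beside 19.4% and 25.7% of all tested genes), with SYNE1 higher. Under total counts 7 and 8 fell, with SYNE1 and EMD (emerin) higher. Of all tested genes 11.6% and 16.3% then fell, and 28.9% and 38.7% rose. LMNB1, the gene of lamin B1, averaged 241 ± 0.518 CPM with DMSO, then 141 ± 4.52 CPM at 75 µg/ml and 90.0 ± 4.84 CPM at 150 µg/ml (SD over both libraries). This was -0.77 on the log2 scale (adjusted p = 6.3e-09) and -1.42 (adjusted p = 1.2e-12). LBR, the lamin B receptor, was at -0.67 and -1.17 and TMPO, a lamin-binding protein, at -0.55, with a fold of 0.499 at 150 µg/ml. SYNE1, which encodes a nesprin that links the nucleus to the cytoskeleton (named after its values were seen), rose by 0.87 and 1.60.

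**Figure D5:**
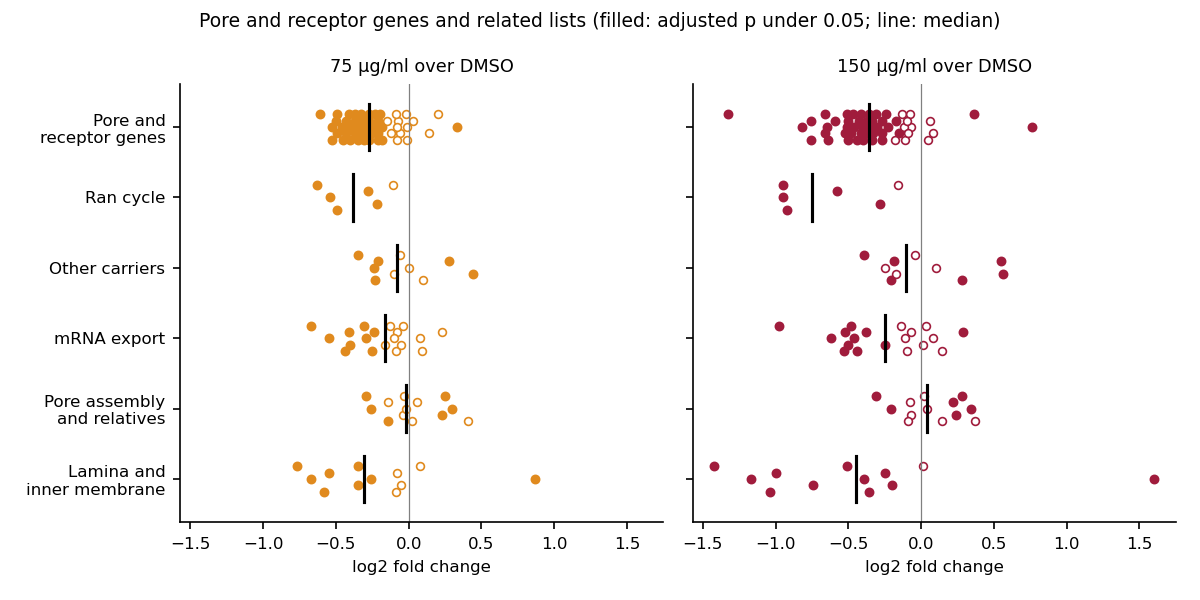
Log2 fold changes over DMSO (x axes) of the pore and receptor genes and of 5 related lists (rows) at 75 µg/ml (left) and 150 µg/ml (right), 1 point per tested gene, filled where the adjusted p is under 0.05, with the median as a line. Ran cycle genes have the lowest medians, -0.38 and -0.75, and SYNE1 is the point farthest right, at 0.87 and 1.60.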

How the data were processed

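RNA-seq counts of 6 libraries were analysed. HISAT2 2.2.1, HTSeq 2.0.2 and the build hg38 are named in the work of the authors, per the submitters' processing notes. Annotation release, options and strand handling were not given in the sources used here. Deposited files from the authors hold raw read counts per gene. Their 5 summary rows, left out of library sizes and tests, held 6.32% to 7.98% of reads outside genes and 11.0% to 11.5% in overlapping genes. Rows were matched by identifier without version to symbols (60591 of 60651) and to GENCODE 29 on GRCh38 for coordinates, gene type and exonic length.

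All libraries entered 1 fit with a mean per group in edgeR 4.0.16 (R 4.3.3; TMM, default filter by group, quasi-likelihood F-test, Benjamini-Hochberg threshold 0.05). This left 3 residual degrees of freedom and a biological coefficient of variation of 5.08%. Intervals are at 95% from this fit. Alternatives were DESeq2 size factors, total counts, no filter, 5 CPM in 2 libraries, DESeq2 1.42.0, limma-voom (limma 3.58.1), a fit of the compared groups alone, a block for replicate number, leaving out each library, and an adjusted p of 0.01. Members, lists and roles were chosen with earlier results of these data known. Values of all libraries are given for 10 fixed genes and, per comparison, for up to 8 falls and 6 rises; in each related list up to 3 genes with the smallest p at 150 µg/ml are named. The procedure was tested on simulated data, with changes of known size in genes drawn from all tested genes. It recovered 26.0% to 38.0% of log2 changes of 0.3 and 46.0% to 64.0% of those of 0.5. For changes of 1 and 2 it recovered 68.0% to 70.0% and 82.0% to 90.0%. Of its calls, 6.02% to 6.50% were false. The simulation changed only 50 genes per size, among 15185 to 15211 genes in each comparison. In the data, 38.6% of genes were called at 75 µg/ml, 51.5% at 150 µg/ml and 22.0% between the doses. The genes changed also spanned all levels of expression, so the recovery rates need not hold for the 52 genes. A gene that did not pass is still not shown to be unchanged. Promoter sequences are from RefSeq (GRCh38.p14). Planned protein features were not run.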

Additional observations from a re-analysis of the deposited data

How the results depend on the processing

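Directions of the named genes past the threshold held under the alternatives run, and KPNA2 at 75 µg/ml, not past it, was at 0.11 and past it under total counts. Total counts gave 4 higher genes at 75 µg/ml, 5 at 150 µg/ml and 7 lower with 6 higher between the doses, with medians of -0.15, -0.17 and -0.02. Among related genes they gave 18 lower and 11 higher at 75 µg/ml, beside 11.6% and 28.9% of all tested genes. At 150 µg/ml they gave 18 higher related genes, beside 38.7%. An adjusted p of 0.01 left 7 lower and 1 higher between the doses. Moves of medians were judged against the median log2 difference between the 2 libraries of a group, scaled to an SD. This measures an offset shared by the genes of a library and not the spread of single genes. Medians moved by more than this to -0.29 at 75 µg/ml and -0.38 at 150 µg/ml with DESeq2 size factors and with the DESeq2 test. They also did so, to -0.25 and -0.32, with 5 CPM in 2 libraries, where fewer genes were tested. Without 1 library each, the medians ran from -0.30 to -0.27 at 75 µg/ml, from -0.38 to -0.35 at 150 µg/ml and from -0.09 to -0.07 between the doses. The same omissions gave 5 to 14 lower and 0 to 4 higher genes between the doses. Over all tested genes, counts moved by more than 1.5 times to 1816 lower and 4501 higher at 75 µg/ml and 2542 lower at 150 µg/ml under total counts. Between the doses they moved to 980 higher with DESeq2, to 1161 lower and 722 higher at 0.01, and to as few as 915 lower and 592 higher with a library left out. Replicate numbers were not shown to pair the libraries, with correlations of their deviations from 0.003 to 0.068. With the replicate block, 38, 40 and 15 genes were lower and 1, 2 and 3 higher, TPR being added at 150 µg/ml (adjusted p = 0.0481). Low counts limit KPNA5, IPO4 and KPNA7, and groups of 2 libraries limit every spread.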
